A study of Mus musculus with 24 samples.

Results

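The promoters of the collagen genes were followed as bait fragments in promoter capture Hi-C, an assay in which cross-linked chromatin is cut and ligated so that DNA in contact is joined, and junctions holding a promoter fragment (the bait) are captured with probes. A bait was taken as a collagen bait where an annotated mm10 end of a gene with a symbol of the form Col, digits, a, digits lay inside it or within 1 kb of it. This gave 42 of the 22203 baits of the series, and 42 of 44 collagen genes had one, all but Col5a2 and Col6a5. The neighbouring type IV genes share their baits (Col4a1 with Col4a2, Col4a3 with Col4a4, Col4a5 with Col4a6), and Col23a1, Col7a1 and Col8a2 have 2 baits each. Of the 42 baits, 32 hold an annotated start or lie within 1 kb of it. The second bait of Col23a1, Col7a1 and Col8a2 holds the other end of its gene and is called the far-end bait here. For the remaining 7 baits, Col12a1, Col14a1, Col1a1, Col22a1, Col26a1, Col2a1 and Col9a3, the strand is not in the tables used here, so which end they hold is not stated. The rule used gene ends, so 6 baits also hold an end of another gene, among them the Col11a2 bait, which holds ends of H2-Ke6, Ring1, Rxrb and Slc39a7. Calls of such a bait cannot be divided between its genes.

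Collagens are the main fibrous proteins of the extracellular matrix, each built from intertwined chains, encoded by the same gene or by different genes. Fibrillar collagens form the ropes of bone, skin and cartilage, FACIT collagens sit on the surface of those ropes, type IV makes the sheets of basement membranes, type VI makes fine beaded filaments, and a transmembrane group stays anchored in the cell surface. Cranial neural crest cells, which form much of the bone, cartilage and connective tissue of the face, are a main source of this matrix in the head.

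Libraries came from mouse embryos in 12 groups of 2. At E11.5, Ezh2cKO embryos (a conditional knockout of Ezh2, which encodes the histone H3 lysine 27 methyltransferase of Polycomb repressive complex 2) were profiled in 4 tissues labelled FNP, Mx, Md and PA2. Embryos labelled Hoxa2PTE-36kb-del were profiled in Md and PA2 and those labelled Hoxa2PTE-42kb-del in PA2, both at E11.5. Wild-type (WT) embryos were profiled at E11.5 in the same 4 tissues and at E8.5 as progenitors, which no label divides by tissue. The labels do not spell out the tissue names, which in embryology usually mean frontonasal, maxillary and mandibular process and pharyngeal arch 2. WT and Ezh2cKO neural crest was sorted by fluorescence, with Wnt1::Cre and ROSA-RFP marking the lineage. The sources used here do not say whether deletion cells were sorted, what drove the Ezh2 knockout or which region each deletion removes. The files hold contacts and no transcripts, so neither the knockout nor the identity of the cells could be checked on expression.

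Each library listed 142284 to 190343 called interactions, of which 95.7 to 97.1% were in cis, that is, between fragments of the same chromosome. Every listed interaction carries a CHiCAGO score of 5 or more, which rates a contact against the background of its own library. Read depth is unknown, and a contact present in more cells cannot be told apart from a contact held for longer in each cell. Collagen baits had 304 to 468 cis calls per library, and 24 of the 42 had a call in all 24 libraries. In the files of the 6 deletion libraries a pair of 2 baits is listed in either order, while the other 18 put the bait of higher coordinate first in 100% of such pairs. Pairs were therefore counted at both of their baits.

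These 4 promoters are shown because they belong to baits whose call counts differed between stages and because, for 3 of them, the enzyme site that ends the bait lies inside the promoter. Sequences are RefSeq's on GRCm38.p6, 5′ to 3′ on the gene's strand, from 250 bases before the annotated start to 30 bases after it. Capitals mark the HindIII site AAGCTT in Col9a2 (chr4:121039316-121039595, plus strand), Col23a1 (chr11:51289670-51289949, plus strand) and Col28a1 (chr6:8192588-8192867, minus strand), and the letters TATAAA in Col3a1 (chr1:45311288-45311567, plus strand).
Col9a2: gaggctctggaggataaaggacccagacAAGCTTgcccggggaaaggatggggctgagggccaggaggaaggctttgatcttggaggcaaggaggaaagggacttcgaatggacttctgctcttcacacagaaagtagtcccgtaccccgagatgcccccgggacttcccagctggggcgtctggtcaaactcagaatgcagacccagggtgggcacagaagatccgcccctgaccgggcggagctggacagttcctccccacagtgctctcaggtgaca
Col23a1: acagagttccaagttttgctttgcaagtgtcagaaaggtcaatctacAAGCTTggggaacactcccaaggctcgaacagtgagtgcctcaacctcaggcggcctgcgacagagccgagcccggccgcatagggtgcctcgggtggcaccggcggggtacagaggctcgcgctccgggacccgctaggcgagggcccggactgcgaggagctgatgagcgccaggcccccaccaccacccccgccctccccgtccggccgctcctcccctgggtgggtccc
Col28a1: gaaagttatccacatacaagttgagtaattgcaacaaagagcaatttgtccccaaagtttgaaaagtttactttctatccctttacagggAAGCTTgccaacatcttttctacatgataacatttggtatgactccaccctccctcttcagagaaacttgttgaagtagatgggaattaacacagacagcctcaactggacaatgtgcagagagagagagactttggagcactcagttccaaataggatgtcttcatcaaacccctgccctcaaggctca
Col3a1: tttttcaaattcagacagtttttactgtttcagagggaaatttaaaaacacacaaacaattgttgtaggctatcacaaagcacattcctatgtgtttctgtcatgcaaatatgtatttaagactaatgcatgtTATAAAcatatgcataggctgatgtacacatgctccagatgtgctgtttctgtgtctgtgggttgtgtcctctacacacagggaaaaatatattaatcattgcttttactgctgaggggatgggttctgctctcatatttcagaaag
The HindIII site begins 222 bases before the start of Col9a2, 203 before that of Col23a1 and 160 before that of Col28a1, so part of each promoter lies on the neighbouring fragment. Across RefSeq's mouse promoters, searched on both strands over 300 bases, AAGCTT was in 7.45% of 32851 windows and in 5 of 38 collagen windows (13.2%). TATAAA was in 13.6% of all windows and in 5 collagen windows (13.2%), and CCAAT in 37.4% of all and 13 collagen windows (34.2%). GGGCGG, the core of a GC box, was in 35.7% of all windows and 23 collagen windows (60.5%). Of the genes with a bait, 34 had a promoter entry. A match is a run of letters and not a measured binding site.

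Collagen baits differed widely in how many contacts they carried. Over 24 libraries Col3a1, the chain of type III collagen, had most, with a mean of 38.0 cis calls, followed by the FACIT genes Col12a1 (31.1) and Col9a2 (31.0), transmembrane Col25a1 (25.0) and Col11a1 (23.5), a chain of the cartilage fibril collagen type XI. At the other end, Col2a1, the main cartilage collagen, averaged 1.29 calls, and the 3 type IV baits averaged 1.21 to 1.38. Counts depend on the fragment as well as on the gene, since bait length ranged from 1083 to 25102 bases, with a median of 5509.5 against 5780 for all baits. Tests on call numbers used the 23 collagen baits whose mean over libraries reached 5 calls. The lowest bait inside that limit was the Col8a2 far-end bait at 5.04, and the highest outside was Col6a2 at 4.75. The other 19 baits are described by their counts.

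The first comparison asked how collagen contacts differ between E11.5 WT tissues and E8.5 WT progenitors. Contacts were more numerous at E11.5 for 8 of the 23 baits (Col26a1, the Col8a2 far-end bait, Col28a1, Col6a1, Col13a1, Col23a1, Col3a1 and Col11a1) and fewer for 3 (Col9a2, Col5a1 and Col11a2). Of all 10344 baits tested, 18.6% had more calls and 10.3% fewer by the same limma test at an adjusted p of 0.05, or 28.9% either way. The median change of the 23 collagen baits was 0.40 on the log2 scale, against 0.03 for all baits. Changes are log2 differences in cis calls per 100000 cis calls of the library, E11.5 minus E8.5. Collagen calls made up 215.5 to 259.7 per 100000 in E11.5 WT libraries and 203.2 and 214.5 in E8.5 libraries.

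**Figure D1:**
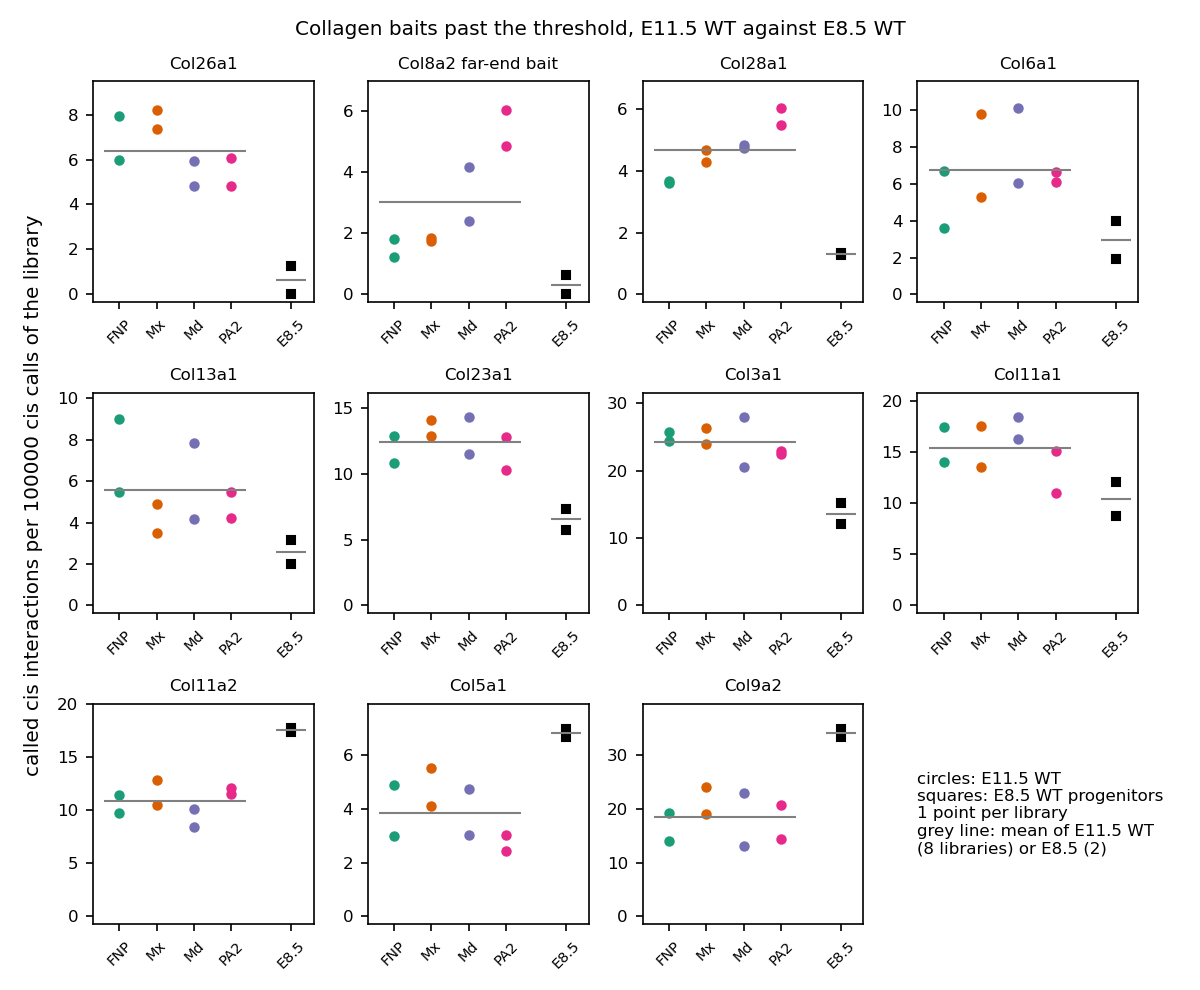
Cis calls per 100000 cis calls of the library for the 11 collagen baits past the threshold, in the 8 E11.5 WT libraries (circles, by tissue, with their mean as a line) and the 2 E8.5 WT libraries (squares, with their mean). Col26a1, Col28a1, Col3a1 and Col23a1 lay above both E8.5 libraries in all 8 E11.5 libraries, Col9a2, Col5a1 and Col11a2 lay below them, and Col6a1 and Col11a1 overlapped.

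Among the fibrillar collagens 2 of 8 tested baits rose and 2 fell. Col3a1 (bait chr1:45308632-45314866), whose product forms fibrils in skin and vessel walls, had 34 to 47 calls in E11.5 WT libraries with a median of 40.5, against 18 and 24 in E8.5 libraries. The groups did not overlap, and the mean was 40.4 ± 4.07 calls (SD, n = 8) in the later and 21.0 ± 4.24 (n = 2) in the earlier stage. The change was 0.82 ± 0.165 (SE), with a limma adjusted p of 0.000783. Col11a1 (bait chr3:114029889-114031319) had 18 to 31 calls with a median of 26 at E11.5, against 13 and 19 at E8.5, a change of 0.55 ± 0.179 (limma adjusted p = 0.0237). Its groups overlapped, and counting only contacts within 1 Mb gave a change of -0.12 (limma adjusted p = 0.695).

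Col5a1 and Col11a2 moved the other way. Col5a1 (bait chr2:27885202-27888632), whose chain belongs to the collagen that starts fibril assembly, had 4 to 9 calls with a median of 6 at E11.5, against 10 and 11 at E8.5. The libraries did not overlap, the lower counts lay in contacts with other baits (3 to 7, against 8 and 9), and the change was -0.84 ± 0.294 (limma adjusted p = 0.0374). The bait of Col11a2 (chr17:34023505-34047778), a second chain of type XI collagen, had 14 to 21 calls with a median of 18.5, against 26 and 28, and again no overlap. Its change was -0.69 ± 0.203 (limma adjusted p = 0.0137), and it shares its calls with 4 other genes.

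The remaining fibrillar baits did not pass the test. Col1a1 and Col1a2 encode the chains of type I collagen, the main collagen of bone. Col1a1 (bait chr11:94933954-94944228) had 10 to 21 calls at E11.5, against 12 and 12 at E8.5, with a change of 0.16 (limma adjusted p = 0.683). Col1a2 (bait chr6:4500543-4513176) had 5 to 13, against 6 and 8, with a change of 0.40 (limma adjusted p = 0.322). Its call was made when pairs with a bait at the other end were left out, where Col1a2 had 5 to 12 calls at E11.5 and 4 and 5 at E8.5. Col27a1, found in cartilage, had a change of 0.52 (limma adjusted p = 0.212) and Col5a3 of -0.25 (limma adjusted p = 0.603). Col2a1, below the minimum for the test, had 0 to 2 calls in E11.5 WT libraries and 3 and 3 in E8.5 libraries, and Col24a1 averaged 1.5 calls over all libraries.

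Of the FACIT collagens, 1 of 4 tested baits changed, and downwards. Col9a2 encodes a chain of type IX collagen, which coats cartilage fibrils. Its bait (chr4:121039345-121041821) had 22 to 41 calls with a median of 31.5 at E11.5, against 50 and 55 at E8.5. All 8 E11.5 libraries lay below both E8.5 libraries, with means of 30.6 ± 7.09 (SD, n = 8) and 52.5 ± 3.54 (n = 2) and a change of -0.91 ± 0.219 (limma adjusted p = 0.00362). Col9a1, another chain of the same collagen, had 3 to 11 calls, against 2 and 6, and a change of 0.75 that did not pass (limma adjusted p = 0.144), although it was called higher without E8.5 replicate 2. Col12a1 and Col14a1, which bind type I fibrils in connective tissue, gave changes of 0.26 and 0.24 that did not pass.

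The other classes held more baits that rose. Col26a1 had the largest change of the collagen baits tested. Its bait (chr5:136880950-136883823) had 8 to 14 calls with a median of 10 in E11.5 WT libraries, against 0 and 2 in E8.5 libraries. The groups were far apart, at 10.6 ± 2.20 (SD, n = 8) and 1.0 ± 1.41 (n = 2), and the change was 3.18 ± 0.383 (limma adjusted p = 2.56e-06). Col28a1 (bait chr6:8188526-8192772), a collagen with von Willebrand factor domains, had 6 to 10 calls with a median of 8, against 2 and 2, a change of 1.59 ± 0.283 (limma adjusted p = 0.000242). Transmembrane Col23a1 (bait chr11:51289718-51295821) had 17 to 24 calls with a median of 21, against 9 and 11, with a change of 0.89 ± 0.201 (limma adjusted p = 0.00207). For both genes every E11.5 library was above both E8.5 libraries.

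Smaller counts lay behind the last 3. Transmembrane Col13a1 (bait chr10:61977008-61989291) had 6 to 15 calls with a median of 8.5, against 3 and 5, with a change of 0.98 ± 0.367 that just passed (limma adjusted p = 0.0496) and was lost under 7 of 11 other settings. Col6a1 (bait chr10:76716846-76732105), a chain of the beaded filament collagen, had 6 to 17 calls with a median of 10.5, against 3 and 6, so the groups met at 6 calls; the change was 1.13 ± 0.337 (limma adjusted p = 0.0153). The far-end bait of Col8a2 (chr4:126314145-126322880), which also holds ends of Adprhl2 and Tekt2, had 2 to 10 calls with a median of 3.5, against 0 and 1, a change of 2.38 ± 0.538 (limma adjusted p = 0.00217). This bait reached the minimum for testing narrowly, through its later libraries, and its values are best read as a description. Col26a1, Col28a1, Col13a1 and Col6a1 also averaged below 5 calls at E8.5 and reached the minimum through E11.5 libraries. The count of baits that rose is therefore not independent of the filter. The tests of these 4 baits, also those without single libraries, are likewise best read as a description.

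With 2 libraries at E8.5, leaving out either one removed calls. Col26a1, Col28a1 and Col3a1 kept their calls without any single library, although the change of Col26a1 was 2.05 without E8.5 replicate 1 and 4.30 without E8.5 replicate 2. At scores of at least 7 the calls of Col23a1 (0.39, limma adjusted p = 0.266) and Col11a1 (0.30, limma adjusted p = 0.215) were lost. Without E8.5 replicate 1 the calls of the Col8a2 far-end bait (limma adjusted p = 0.111) and Col11a1 (0.382) were lost, and without E8.5 replicate 2 those of Col6a1 (0.349), Col9a2 (0.0517) and Col23a1 (0.0733). That of Col11a2 was lost without either, that of Col13a1 without either and without any of 5 E11.5 libraries, and that of Col5a1 without either and without any of 4 E11.5 libraries. Set against E8.5 one tissue at a time, FNP had 6 changed collagen baits (19.2% of all baits changed), Mx had 5 (19.1%), Md had 9 (19%) and PA2 had 7 (19.3%). Col23a1, Col26a1, Col28a1 and Col3a1 were called higher in all 4 comparisons, which share the E8.5 libraries.

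**Figure D2:**
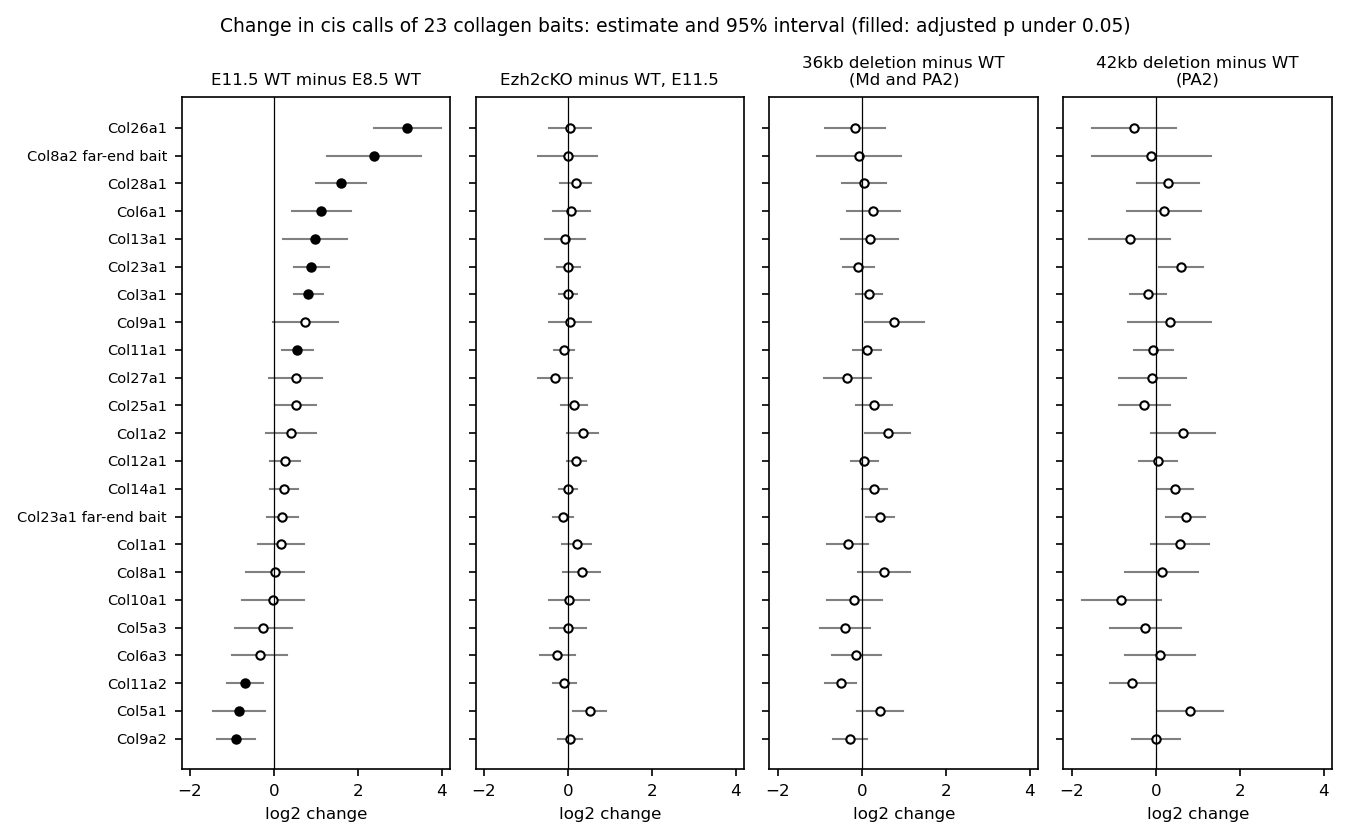
Log2 change in cis calls of the 23 tested collagen baits (points) with 95% intervals (lines) in 4 comparisons, filled where the limma adjusted p was under 0.05. Filled points appear in the comparison of stages, from 3.18 for Col26a1 to -0.91 for Col9a2, and in none of the other 3.

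Summed by class, transmembrane and other collagens had more calls at E11.5, and the remaining classes overlapped between stages, given as a description with no test. The 5 transmembrane baits together had 35.0 to 48.1 calls per 100000 in E11.5 WT libraries, against 27.3 and 29.4 in E8.5 libraries. The 4 baits of other collagens had 12.0 to 17.8, against 5.71 and 6.01. In both classes the stages did not overlap. The transmembrane sum counts the pair of the 2 Col23a1 baits at each of them. The other collagens were Col26a1 and Col28a1, called above, and the 2 baits of Col7a1. The start bait of Col7a1 had 2 to 4 calls at E11.5, against 4 and 2, and its far-end bait 2 to 6, against 3 and 3. The 10 fibrillar baits had 76.6 to 98.7, against 74.2 and 80.6, and the 9 FACIT baits 55.3 to 72.6, against 68.8 and 76.2, so these overlapped. Type VI baits (9.60 to 22.0, against 8.89 and 12.0) and type IV baits (0.604 to 6.75, against 2.67 and 4.44) overlapped too, as did short-chain baits (8.55 to 15.3, against 8.02 and 8.89) and multiplexin baits (0.611 to 3.65, against 2.01 and 2.54).

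Pooled over the collagen baits, contacts lay at shorter distances at E11.5, a description that a few baits with many calls weigh on. The median distance was 391 to 440.4 kb in E11.5 WT libraries, against 513 and 511 kb in E8.5 libraries. Over all calls of a library the stages lay much closer, at 443 to 492 kb and 434 and 447 kb. Contacts over 1 Mb made up 17.2 to 22.97% of collagen calls at E11.5, against 29.6 and 31.1% at E8.5, while over all calls they made up 29.2 to 32.6%, against 31.5 and 32.4%. The groups of the collagen values did not overlap. Col9a2 alone gave 16.9 to 34.3% of the collagen contacts over 1 Mb at E11.5, against 38.89 and 39.05% at E8.5. Without Col9a2, left out after the values were seen, contacts over 1 Mb made up 13.0 to 17.2%, against 21.65 and 22.61%, and the median distance was 378 to 402.5 kb, against 406.1 and 437.7 kb. Contacts inside the gene itself made up 15.1 to 18.7% of collagen calls at E11.5 and 12.8 and 12.7% at E8.5.

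**Figure D3:**
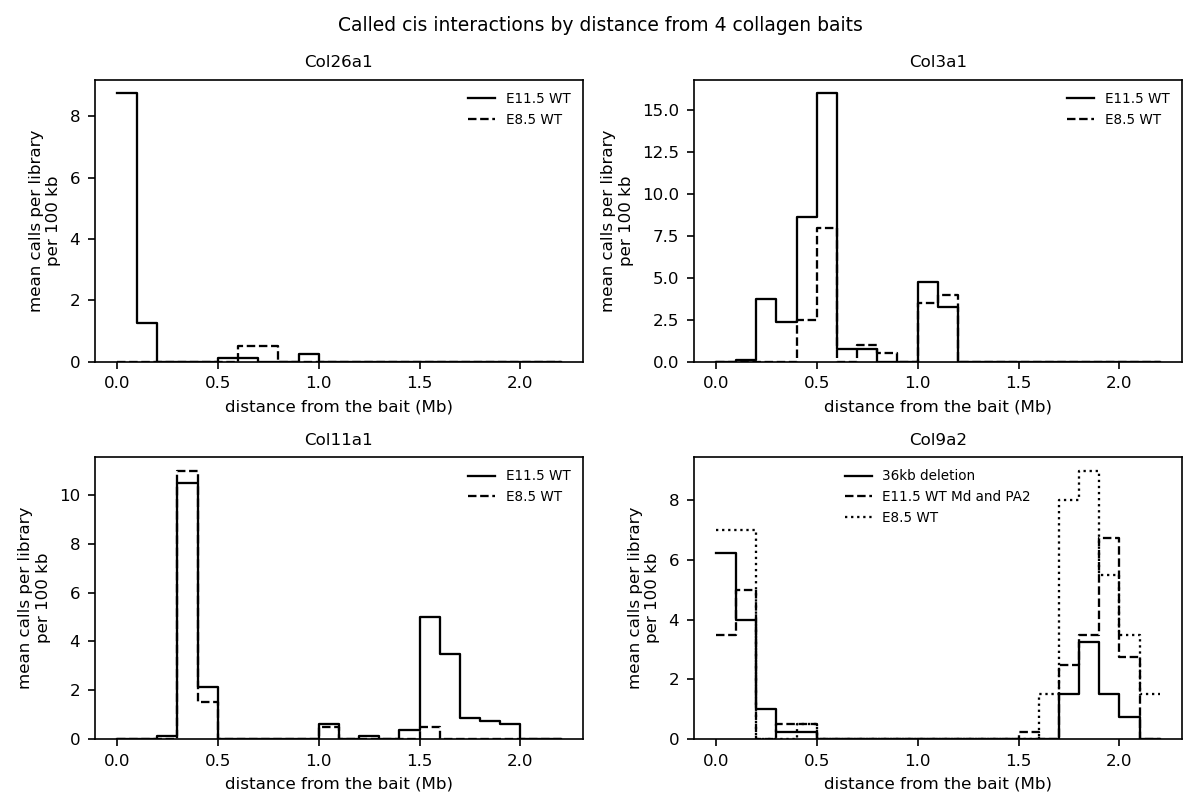
Mean number of cis calls per library in windows of 100 kb against distance from the bait in Mb, for Col26a1, Col3a1 and Col11a1 at E11.5 WT and E8.5 WT, and for Col9a2 in the 36kb deletion, E11.5 WT Md and PA2, and E8.5 WT. Col26a1 has 8.75 calls within 100 kb at E11.5 and 0 at E8.5, and Col9a2 has a separate group of contacts near 1.7 to 2.1 Mb.

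The distances differed in kind from gene to gene. At Col26a1 the E11.5 calls lay inside the gene, 7 to 14 per library and 80 of 85 in all (94.1%), and no E8.5 library had such a call. At Col23a1, 15 to 22 calls per library lay inside the gene, against 9 and 9. Col28a1 differed from these, since 1 of its 62 E11.5 calls lay inside the gene. At Col3a1 contacts within 1 Mb numbered 25 to 40 per library at E11.5, against 11 and 13 at E8.5, whereas those over 1 Mb numbered 7 to 10, against 7 and 11. Its contacts reached mostly to the side of lower coordinates, with 11.8% on the other side at E11.5 and 7.14% at E8.5. Col11a1 showed the opposite pattern, with 11 to 15 calls within 1 Mb, against 11 and 14, and 5 to 18 over 1 Mb (median 13.5), against 2 and 5. Col9a2 had fewer calls at E11.5 in both ranges, with 10 to 23 between 1.7 and 2.1 Mb, against 24 and 28, and 8 to 11 within 1 Mb, against 14 and 15. Col11a2 had fewer contacts with fragments that are not baits, 1 to 4 at E11.5, against 11 and 11, while contacts with other baits numbered 13 to 18, against 15 and 17.

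In a limma fit of the median log10 distance, 2 of the 17 collagen baits with enough calls differed between stages, against 22.8% of 7271 baits, and the 2 moved in opposite directions. The median distance of Col3a1 contacts was 519.2 to 539.8 kb in E11.5 WT libraries, against 571.1 and 798.2 kb, a change of -0.107 ± 0.0237 in log10 distance (limma adjusted p = 0.00598). That of Col14a1 was 233 to 239 kb, against 225 and 224 kb, a small change of 0.023 (limma adjusted p = 0.00836) that was lost without E8.5 replicate 2 (limma adjusted p = 0.0609).

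Some contacts of collagen baits were called in every library and others at 1 stage. Of 2113 cis pairs with a collagen bait, 56 (2.65%) were called in all 24 libraries, against 1.3% of 1153700 pairs of all baits. Taking the best pair of each bait, the highest scores belonged to Col14a1 with a fragment 239 kb away (chr15:55550150-55550929, median score 35.1), the far-end bait of Col23a1 with the fragment just upstream of the Col23a1 bait (chr11:51285273-51289717, 297 kb, median score 28.9), and Col12a1 with a fragment 939 kb away (chr9:78774401-78777037, 27.8). Col1a1 with chr11:94866531-94871684 at 70.0 kb (24.7) and Col3a1 with chr1:44740656-44748461 at 567 kb (24.1) followed. The Col23a1 partner carries the part of the printed promoter that lies 5′ of the capitals. Neighbouring fragments often enter as a run: 9 of the 56 pairs belong to Col14a1, at 219 to 242 kb, 8 to Col3a1, and 7 each to Col11a1 (371 to 406 kb) and Col12a1 (920.0 to 941 kb).

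A further 21 collagen pairs (0.994%, against 0.485% of all pairs) were called in 8 of 8 E11.5 WT libraries and neither E8.5 library. Col3a1 held 8 of them and Col26a1 4. The Col26a1 partners with the highest scores lay in the gene at 81.1, 90.4 and 95.7 kb (chr5:136795754-136806798, chr5:136788255-136795753 and chr5:136785100-136788254, median scores 10.5, 10.3 and 9.37). Col3a1 reached one partner 449 kb to its right (chr1:45756427-45764203, 8.81) and a pair of neighbouring fragments 285 and 278 kb to its left (chr1:45020763-45032870 and chr1:45032871-45034134, 8.28 and 8.25). Others joined Col6a1 to a fragment within 1 kb of an end of Col6a2, its chain partner, at 103 kb (8.08). The end itself lies in the neighbouring Col6a2 bait, whose pair with Col6a1 was called in 1 of 2 E8.5 libraries. Further pairs joined Col1a1 to a fragment at 73.4 kb (8.21) and Col1a2 to one at 880.0 kb (8.03). All 4 Col26a1 pairs were also called in the 8 Ezh2cKO and 6 deletion libraries.

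The reverse set, in both E8.5 libraries and in none of 8 E11.5 WT libraries, held 13 collagen pairs (0.615%, against 1.06% of all pairs). Col9a2 had 4, among them one at 1802 kb (chr4:122840241-122844681, median score 9.44), and Col11a2 had 3, of which the nearest 2, the first at 23.4 kb, lay inside Col11a2. The rest included Col5a1 with the bait of Adamts13 and Cacfd1 at 878 kb (6.25). Because 2 libraries stand against 8, these shares are not comparable between the directions.

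**Figure D4:**
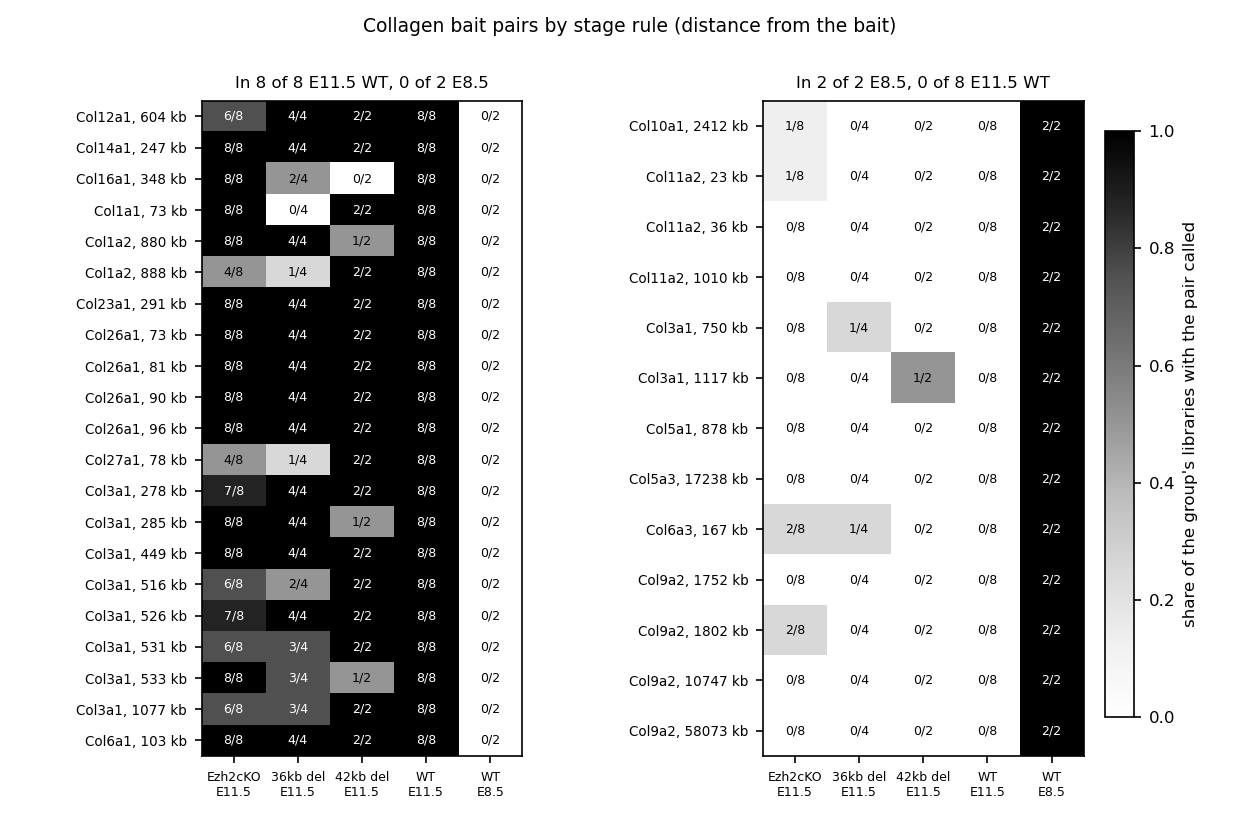
Share of libraries in each group that called each of 21 collagen pairs found in 8 of 8 E11.5 WT and 0 of 2 E8.5 libraries (left) and of 13 pairs found in 2 of 2 E8.5 and 0 of 8 E11.5 WT libraries (right), labelled by bait and distance in kb. Most pairs on the left were also called in most Ezh2cKO and deletion libraries, and those on the right in few or none.

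Collagen baits also met each other. The Col6a1 and Col6a2 baits, 101 kb apart, met in 23 of 24 libraries, and this pair was the only one to join 2 different collagen genes. The start bait of Col23a1 met the far-end bait of its own gene, 291 kb away, in 22 libraries, with 8 of 8 at E11.5 WT and 0 of 2 at E8.5. The annotated gene end on that side lies in the neighbouring fragment, chr11:51285273-51289717, within 1 kb of the start bait. That fragment met the same far-end bait in all 24 libraries, E8.5 included (median score 28.9). The 2 baits of Col7a1, an anchoring fibril collagen of skin, met at 21.4 kb in 21. Other lasting partners held, or lay within 1 kb of, ends of genes with other roles. Col5a1 met Wdr5, a subunit of histone H3 lysine 4 methyltransferases, at 372 kb in 24 libraries, Col11a2 met H2-Ob, an MHC class II gene, at 202 kb in 24, and Col3a1 met Mettl21e at 1089 kb in 24. Between stages, Col3a1 met a fragment holding or within 1 kb of an end of Gulp1, an engulfment adaptor, at 516 kb. That pair was called in 8 of 8 E11.5 WT and 0 of 2 E8.5 libraries. Col28a1 met C1galt1, a galactosyltransferase of O-glycans, at 345 kb in 7 of 8 and 0 of 2. Contacts with other chromosomes were rare, and the one found most often joined Col11a1 to chr16:81055862-81060866 in 15 libraries, which were 8 of 8 Ezh2cKO, 2 of 4 of the 36kb deletion, 3 of 8 E11.5 WT and 2 of 2 E8.5 WT.

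Among the 4 E11.5 WT tissues no collagen bait differed by the limma F test, where 0.271% of all baits did. Col8a1, a short-chain collagen of vessel and corneal basement membranes, came nearest (limma adjusted p = 0.0771), with 12 and 8 calls in FNP, 12 and 10 in Mx, 4 and 6 in Md, and 3 and 2 in PA2. At an unadjusted p of 0.05, Col8a1 and Col10a1 passed, but the share of all baits at that limit was not counted.

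In Ezh2cKO against WT tissues at E11.5, none of the 23 collagen baits changed, against 10.8% of all baits, and 1 of 23 passed at an unadjusted p of 0.05, against 25.4% of all baits. That bait was Col5a1, with 6 to 13 calls in Ezh2cKO libraries (median 9.5), against 4 to 9 in WT libraries (median 6), a change of 0.52 ± 0.186 (limma adjusted p = 0.077). Col3a1 had 36 to 53 calls, against 34 to 47, Col26a1 8 to 15, against 8 to 14, and Col9a2 25 to 38, against 22 to 41, with wide overlap in each. The median change of the collagen baits was 0.03, against 0.01 for all baits. The effect of Ezh2cKO passed the limma F test for a difference between tissues at no collagen bait, where 0.00967% of all baits passed. Col13a1 and Col14a1 were under an unadjusted p of 0.05 in that test, but the share of all baits at that limit was not counted. Taken singly, no tissue had a collagen bait past the threshold, against 0.831% of all baits for FNP, 1.26% for Mx, 1.84% for Md and 1.63% for PA2. No collagen bait changed its median distance (3.53% of all baits did).

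At the level of pairs, 3 collagen contacts (0.142%, against 0.085% of all) were called in at least 7 of 8 Ezh2cKO and at most 1 of 8 WT libraries, and none in the reverse sense (0.125% of all). Col11a2 met a fragment 1254 kb away (chr17:35284629-35293876, median score 8.20) in 8 of 8 Ezh2cKO and 0 of 8 WT libraries at E11.5, as well as in 3 of the 4 libraries of the 36kb deletion and 1 of 2 E8.5 WT libraries. Col8a2 met a fragment at 27.8 kb in its own gene in 7 of 8, against 0 of 8, and Col16a1, a FACIT-like collagen, one at 263 kb in 7 of 8, against 1 of 8.

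In the 36kb deletion, set against WT in Md and PA2, no collagen bait changed in calls, against 11.1% of all baits, and 4 of 23 passed at an unadjusted p of 0.05, against 27.3% of all baits. Nor did any in Md alone (3.08% of all baits) or PA2 alone (1.5%). Col11a2 had 10 to 12 calls in the 4 deletion libraries, against 14 to 20 in the 4 WT libraries, without overlap, a change of -0.51 ± 0.182 (limma adjusted p = 0.0752). The difference lay in its contacts with other baits, 6 to 8, against 13 to 18, while its contacts with fragments that are not baits numbered 2 to 4, against 1 to 3. Within 1 Mb it had 5 to 8, against 12 to 17, and there its call was made. The other 3 were the far-end bait of Col23a1 at 0.43 (limma adjusted p = 0.074), Col1a2 at 0.62 (0.124) and Col9a1 at 0.78 (0.139). The Col1a1 contact at 73.4 kb, present in all 8 E11.5 WT and all 8 Ezh2cKO libraries, was called in 0 of 4 libraries of this deletion and in 2 of 2 of the 42kb deletion. Deletion and WT files list bait pairs in different orders. With bait pairs left out, 4.4% of all baits were called in the 36kb deletion, and the collagen bait called was Col8a1.

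Col9a2 was the single collagen bait whose contact distance changed in the 36kb deletion (3.64% of all baits did). Its median distance was 999.2 and 1783.0 kb in deletion Md and 164.8 and 204.6 kb in deletion PA2, against 1910.1 and 1903.4 kb in WT Md and 1820.5 and 1899.8 kb in WT PA2. The log10 change was -0.633 ± 0.107 (limma adjusted p = 0.0062), and with scores of at least 7 it was -0.022 and not called. Behind it stood the group of contacts between 1.7 and 2.1 Mb, 4 to 8 per library in the deletion, against 10 to 23 in WT, while contacts within 1 Mb numbered 7 to 18, against 8 to 11. Far contacts were also fewer over all calls of these libraries. Those over 1 Mb made up 23.7 to 26.3% in the deletion, against 29.5 to 32.6% in WT Md and PA2.

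In PA2 of the 42kb deletion no collagen bait changed in calls (1.84% of all baits did) or in distance (1.73%), with 5 of 23 passing at an unadjusted p of 0.05 for calls, against 17.3% of all baits. The nearest was again the far-end bait of Col23a1, at 0.71 ± 0.220 (limma adjusted p = 0.0943), followed by Col23a1, Col14a1, Col5a1 and Col11a2. Col11a2 had 10 and 14 calls in deletion libraries, against 19 and 20 in WT PA2 (change -0.56, limma adjusted p = 0.264). Here too the difference lay in contacts with other baits, 9 and 9, against 16 and 18, and not in the rest, 1 and 5, against 3 and 2.

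Other genes of the collagen pathway were read beside the members, as sets named from general knowledge. Between stages, 2 of 20 tested baits of collagen-processing genes rose and 2 fell. Mia2, which helps export of collagen from the endoplasmic reticulum, rose by 1.23, while Tll2, of the tolloid procollagen proteinases, changed by -1.24 and Colgalt1, which adds galactose to collagen, by -1.40. Of regulators, 7 of 13 baits rose and none fell, among them Smad7, an inhibitory SMAD (5.93), Runx2, the osteoblast transcription factor (2.52), and Tgfb2 (1.43). Of partners of the fibril, 6 of 13 rose and none fell, with fibrillin gene Fbn2 at 2.52, matrilin gene Matn3 at 1.84 and the collagen receptor gene Ddr2 at 1.29. Matn3 counts with 2 baits, the other at 0.94, and the one quoted is also named for Wdr35. The Ddr2 bait is also named for Hsd17b7 and the Tll2 bait for Opalin, and calls of such baits cannot be divided between their genes. These are log2 changes past a limma adjusted p of 0.05, a limit that 18.6% of all baits passed upwards and 10.3% downwards. The median change was 0.01 for the processing, 0.57 for the regulator and 0.37 for the partner baits, against 0.03 for all baits. Smad7 (0.5 calls), Runx2 (1.5), Fbn2 (1), Ddr2 (4) and the quoted Matn3 bait (4.5) averaged below 5 calls at E8.5. They reached the minimum through E11.5 libraries, so these counts and medians are not independent of the filter and are best read as a description.

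In Ezh2cKO, 3 of 20 processing baits changed (Colgalt1 1.06, Sec23a 0.41, Loxl3 -1.08), 1 of 13 regulator baits (Tgfb2 -0.43) and 3 of 13 partner baits (Sparc and Fbn2 0.88 each, Bgn -0.54), against 10.8% of all baits. In the 36kb deletion 4 of 20, 4 of 13 and 3 of 13 changed, against 11.1% of all baits. Loxl3 (1.86), Pcolce (0.66), Twist1 (0.57) and Thbs1 (0.63) rose, and Bmp1 (-1.21), Plod1 (-0.82), Tgfb1 (-1.15), Sp7 (-1.05), Tgfb2 (-0.42) and 2 baits of Ddr1 (-1.17 and -0.86) fell. The baits of Pcolce, Bmp1 and Tgfb1 are also named for Fbxo24, Sftpc and B9d2. Another bait of Sp7, also named for Aaas, was not called in this deletion. In the 42kb deletion 1 of the 2 baits of Ddr1 fell (-2.28), 1 of 13 partner baits, and 0 of 20 processing and 0 of 13 regulator baits changed, against 1.84% of all baits. Sparc, Loxl3, Bmp1 and, in the 42kb deletion, Ddr1 averaged below 5 calls on the lower side of their comparisons. Their changes are best read as a description. Of promoters that mark other cells, between stages 1 of 5 epithelial baits rose (Krt14), 2 of 4 endothelial baits rose (Cdh5 and Tek), 1 of 4 blood baits fell (Spi1), and 0 of 5 muscle and 0 of 1 neuronal baits changed. The Spi1 bait is also named for Mybpc3. Cdh5 (3.5 calls) and Tek (4.5) averaged below 5 calls at E8.5, so their rises are best read as a description. Among all baits, 18.6% rose and 10.3% fell between stages, and the shares given above hold for the other comparisons. In Ezh2cKO 1 of 4 endothelial baits (Tie1), 1 of 5 muscle (Tcf21), 1 of 1 neuronal (Isl1) and 1 of 4 blood baits (Tal1) fell, and no epithelial bait changed. In the 36kb deletion 1 of 5 muscle baits fell, that of Des, also named for Speg, with a mean of 2.5 calls in the deletion. In the 42kb deletion 1 of 4 endothelial baits (Cdh5) fell. The part of such cells in the collagen values was not tested.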

How the data were processed

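Promoter capture Hi-C was measured in 24 libraries of mouse embryos, with sorted neural crest stated for WT and Ezh2cKO and not for the deletions. Per the labels' protocols, chromatin was fixed with paraformaldehyde and cut with HindIII. Each deposited file lists, for 1 library, the calls of the authors as a bait, its other end and a score, with no header. Per the deposited file names the score is that of CHiCAGO, and the lowest listed is 5. Coordinates are in GRCm38 (mm10), per the submitters' processing notes. No source used here gives the aligner or the caller's version and settings. Of 2569 AAGCTT sites in RefSeq promoters, 1703 had a listed fragment starting at the cut, which checks the build.

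Groups came from sample titles, which number 2 libraries each and call them biological except for the 42kb deletion. If they were technical, p-values measure only technical spread. For replicate 2 of the 36kb deletion in PA2, the label field for genotype holds another sample's title, so its own title was used. Each library has its own batch label, so batch could not be tested, and E10.5 was not analysed here.

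Cis calls per bait were counted, with a pair of 2 baits counted at both, because the order of listing differs between files (50.8 to 51.3% with the higher coordinate first in deletion libraries, 100% in the others). In limma 3.58.1 (R 4.3.3), log2 of calls plus 0.5 per 100000 cis calls was fitted with 12 group means and empirical Bayes with trend, for the 10344 baits whose mean over libraries reached 5 calls. Contrasts averaged tissues, tests were two-sided, and p-values were adjusted by Benjamini-Hochberg over all baits tested. Values are relative to the library, so a shift shared by all baits is not seen. Median log10 distance between fragment midpoints was fitted likewise for 7271 baits with at least 3 cis calls in every library. Single pairs were counted by the libraries that call them, with no test. The scripts were tested on simulated data. Counting used Python 3.11.15 with pandas 2.3.3. Gene ends came from RefSeq genes and promoters from RefSeq on GRCm38.p6.

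The members and gene lists were chosen with earlier results of these data known. Named are all fibrillar genes, the members past the threshold (the 10 largest changes where more pass), up to 10 pairs per presence rule by median score, and up to 3 genes per list; collagen partners and pairs beyond these were chosen after their values were seen. Alternatives changed the pseudocount, filter, score minimum, scaling, distance limit, bait partners, groups fitted, trend, replicate block, each library and the membership rule; counting at the bait listed first was added after seeing the data.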

Additional observations from a re-analysis of the deposited data

Results flagged for a closer look

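In 3 of 87 groups of 4 to 10 libraries, the extreme library lay further from its neighbour than Dixon's 95% limit for its group size, and chance alone gives about 1 in 20. Col5a3 had 6 calls in Mx replicate 1 of E11.5 WT, the lowest of 8 libraries, with 13 to 18 in the others, and the gap on the log2 scale was 0.704 of the range. Col26a1 had 5 calls in Md replicate 1 of the 36kb deletion, with 8, 7 and 8 in the other 3 libraries (0.894 of the range). The median distance of Col9a2 contacts was 1976.7 kb in Mx replicate 1 of Ezh2cKO, the farthest of its 8 libraries (0.665 of the range on the log10 scale).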

How the results depend on the processing

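Under the alternatives, 579 of 661 recomputed counts stayed equal or close to the main count. Of 875 recomputed values of named baits, 832 stayed on the same side of the threshold, and those called also kept their sign. Many named baits were not called in the main fit, and for them the sign was not compared. At scores of at least 7 the stage calls among collagen baits were 4 (2 higher) in place of 11 (8 higher), with 11 baits tested, and with a mean of at least 10 calls they were 6 (4 higher), with 13 tested. Leaving out bait partners gave 1 lower in place of 3, since Col11a2 and Col5a1 then fell below the minimum and were not tested (20 baits were). Col11a1 reversed to -0.12 within 1 Mb, where its calls numbered 11 to 15 at E11.5 WT, against 11 and 14 at E8.5. By tissue at scores of at least 7, 2 (FNP), 2 (Mx), 3 (Md) and 2 (PA2) baits were called in place of 6, 5, 9 and 7; FNP gave 3 with only its groups fitted, Mx 8 under the replicate block and 3 with gene ends inside the bait, and PA2 3 with a mean of at least 10 calls.

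Where no collagen bait had been called, 1 was in some settings. With a mean of at least 1 call it was Col6a4 (Ezh2cKO, Ezh2cKO in Mx, the WT tissue F test). It was Col11a2 lower in the 36kb deletion within 1 Mb (also in PA2 alone) and in the 42kb deletion at scores of at least 7. It was Col8a1 with bait partners left out or pairs counted at the bait listed first (the 36kb deletion, higher, and Ezh2cKO in PA2), at the bait listed first in the 36kb deletion in PA2, and in the WT tissue F test in both of these and within 1 Mb. The stage difference in distance was called for 4 baits with mean log10 distance, and that of the 36kb deletion for 0 at scores of at least 7. Pairs numbered 27, 11, 7 and 1 at scores of at least 7 in place of 56, 21, 13 and 3.

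Over all baits, scores of at least 7 gave 1543 calls for stage (2991), 567 for Ezh2cKO (1115), 524 for the 36kb deletion (1149) and 108 for the 42kb deletion (190). Leaving out bait partners gave 333 and 95 in the deletions, fitting only their groups 694 and 81, and contacts within 1 Mb 118 in the 42kb deletion. The causes of these changes were not tested.

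Without each library in turn, collagen stage calls ranged from 6 to 11 (5 to 8 higher, 0 to 3 lower; all baits 1668 to 2860), FNP 2 to 4, Mx 3 to 5, Md 3 to 8 and PA2 3 to 5. The range was 0 to 1 for Ezh2cKO (Col5a1 without PA2 Ezh2cKO replicate 1; all baits 805 to 984), 0 to 1 for the 36kb deletion (Col1a2 without PA2 36kb deletion replicate 2; all baits 594 to 1300) and 0 for the 42kb deletion (all baits 29 to 122). Distance calls ranged from 2 to 4 for stage, 0 to 1 for Ezh2cKO, 1 to 2 for the 36kb deletion and 0 to 1 for the 42kb deletion.

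Across the 2 sides of each comparison, samples with the same replicate number did not deviate together (correlations from -0.034 to 0.014). Tissues of the same genotype were not compared in this way, so a shared effect of the number was not tested there. With the number as a replicate block, 10 collagen baits were called for stage. Another scaling moved the median of all baits by -0.034 to 0.082. With 2 libraries at E8.5 and unknown read depth, a call present at 1 stage may have been just under the score limit at the other.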

Other observations

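Col6a4, a type VI collagen gene that averaged 4.54 calls and so fell below the minimum for the test, varied among the E11.5 tissues. Its bait had 0 and 1 calls in FNP, 0 and 0 in Mx, 4 and 6 in Md and 5 and 8 in PA2 of WT embryos. In Ezh2cKO embryos it had 2 and 2 in FNP, 7 and 7 in Mx, 8 and 8 in Md and 8 and 14 in PA2. Both WT FNP and WT Mx were near 0, PA2 was highest in both genotypes, and each Ezh2cKO tissue had a higher mean than its WT counterpart. The E8.5 libraries had 0 and 2 calls. With the minimum lowered to a mean of 1 call, its Ezh2cKO change passed the limma threshold, as it did in the tissue F test.

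Col16a1, also below the minimum, had 3 to 7 calls in Ezh2cKO libraries with a median of 5, against 1 to 4 in WT libraries with a median of 3, and 0 to 3 in the 36kb deletion.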
